A study of Mus musculus with 24 samples.

Results

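Messenger RNA of ID8 cells carrying a knockout of Ifnar1 was compared with that of ID8 cells without it, all of them 3 h after interferon (IFN) beta. The comparison takes the treated samples alone, 12 of the 24 in the series: 6 samples of knockout clones and 6 of controls. ID8 is a mouse ovarian cancer line, and the labels describe every culture here, controls included, as lacking Trp53, a tumour suppressor gene, and Brca2, a DNA repair gene. The 4 treated groups hold 3 samples each: Ifnar1 knockout clone 1CF10, Ifnar1 knockout clone 2CD7, cells that received an empty CRISPR vector (EV), and untransfected cells (WT). Each group received 10000 IU/ml of recombinant mouse IFN beta. The mean of both clones was set against the mean of both controls, and each clone against each control, and the same lines without IFN beta served for reference. The 3 samples of a group are technical replicates treated on 1 date, so the p-values measure technical spread alone, and a difference of a clone stands for that clone and its culture.

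Ifnar1 encodes a chain of the receptor for type I interferons, a family that includes IFN alpha and IFN beta. Binding brings this chain together with Ifnar2 and activates the kinases Jak1 and Tyk2, which phosphorylate Stat2 and related transcription factors. A complex that includes Stat2 and Irf9 then enters the nucleus, binds interferon-stimulated response elements (ISRE) in promoters and raises the transcription of interferon-stimulated genes. Their products block viral replication, present antigen, attract immune cells and limit the signal itself.

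RNA was counted as unique molecular identifiers (UMIs) from the 3′ ends of transcripts, so each UMI stands for 1 captured molecule. The 12 treated libraries held 2204114 to 2986329 UMIs with 15864 to 16622 genes detected, and mitochondrial genes held 1.16% to 1.82% of them. Levels below are CPM, the UMI count of a gene scaled by the total of its library, and differences are log2 values with a standard error (SE) from edgeR's quasi-likelihood test, called at a Benjamini-Hochberg adjusted p under 0.05 over 11698 tested genes. Krt8, Krt18 and Krt19, keratins of simple epithelia, and the mesothelial genes Wt1 and Msln were abundant in all treated libraries, with median levels from 203 to 959, while Krt7 had a median of 0.367 and Cdh1 of 0. Of 32 leukocyte markers 1 reached the tested set and of 16 endothelial markers 2, none of them called. The summed leukocyte markers held 12.1 to 22.8 CPM in clone libraries and 12.5 to 19.9 in controls, and Itgam and Kdr were at 0 in all 12. Library 3 of treated 1CF10 differed from its 2 partners by more than other replicates did. Library 2 of treated 2CD7 stood apart in interferon-stimulated genes, as given below.

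The labelled target, Ifnar1, was at 10.1, 12.5 and 11.8 CPM in the 1CF10 libraries and at 6.49, 8.51 and 7.71 in 2CD7. In EV it was at 8.99, 12.4 and 12, and in WT at 16.7, 13.6 and 13.8. Values of 1CF10 and EV overlapped, and those of 2CD7 lay below all controls. The pooled difference was -0.52 (SE 0.18, adjusted p = 0.0243), the contrasts ran from -0.05 for 1CF10 against EV to -1.0 for 2CD7 against WT, and the clones were not called apart (adjusted p = 0.18). The pooled call was lost with DESeq2 (adjusted p = 0.0677), after thinning all libraries to 1 depth (adjusted p = 0.159) and without library 1 of 2CD7, library 2 of EV or library 1 of WT (adjusted p = 0.0536 to 0.0637). Tags at the 3′ end do not read an edit further upstream, so this level does not test the knockout. Ifnar2 (-0.13, SE 0.15), Trp53 (0.28, SE 0.16) and Brca2 (0.32, SE 0.13) were not called on average. Ifnar2 was called lower in 2CD7 against WT (-0.61, adjusted p = 0.0322). Brca2 was called higher in 1CF10 (0.80, adjusted p = 0.000488) and 2CD7 (0.64, adjusted p = 0.0158) against WT and in neither against EV, and its average passed without library 2 of 1CF10, library 3 of 2CD7 or library 1 of WT (adjusted p = 0.0254 to 0.0462).

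Averaged over both clones, 1392 genes (11.9% of those tested) were lower and 1162 (9.93%) were higher than in the treated controls. The lower ones reached further: 322 were at least 2-fold lower and 155 at least 4-fold, against 48 and 3 genes higher. Clone 1CF10 was lower in 1285 genes (11% of tested) and higher in 942 (8.05%) against EV, and lower in 2015 (17.2%) and higher in 1730 (14.8%) against WT. Clone 2CD7 was lower in 979 (8.37%) and higher in 861 (7.36%) against EV, and lower in 972 (8.31%) and higher in 638 (5.45%) against WT. These 4 contrasts share libraries in pairs, so their counts are not independent. Lines differed widely among themselves as well: 2CD7 was lower than 1CF10 in 777 genes (6.64%) and higher in 1002 (8.57%), and EV was lower than WT in 1215 (10.4%) and higher in 1046 (8.94%).

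**Figure D1:**
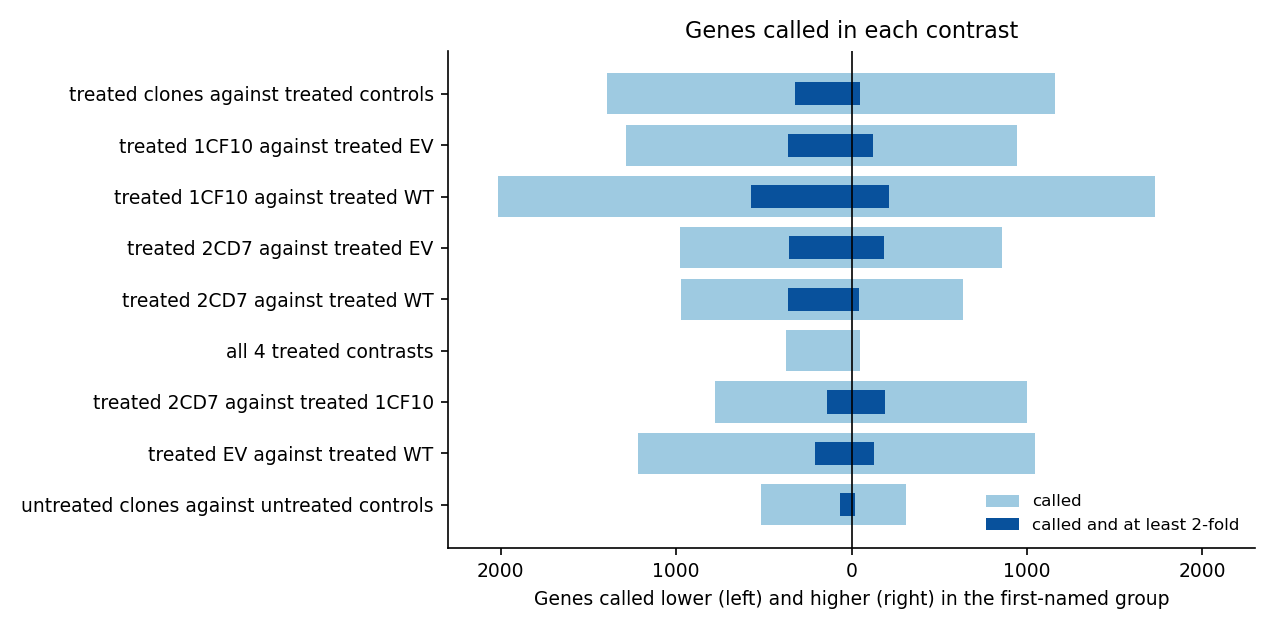
Bars give the number of tested genes called lower (left) and higher (right) in the first-named group of each contrast (adjusted p under 0.05), with those at least 2-fold apart in dark blue where that count was made. Calls at least 2-fold lower outnumber those higher in all 4 contrasts of a clone with a control, from 359 against 185 to 574 against 216, and EV against WT has 210 and 127.

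Requiring the same direction in all 4 contrasts left 374 genes lower in both clones (3.2% of tested) and 48 higher (0.41%). The lower genes took 20300 to 21190 CPM in the 6 clone libraries and 45970 to 54970 in the 6 controls. Of the 374, 349 had no overlap between the 6 clone and 6 control libraries, as did 44 of the 48 higher genes. Over all tested genes the libraries did not overlap for 406 genes on the lower side and 291 on the higher side. Another 355 of the 11698 tested genes were lower in 1CF10 against both controls with 2CD7 called against neither. The same rule for 2CD7 gave 50 genes. Of these, 257 for 1CF10 and 30 for 2CD7 were also called lower than in the other clone. The rest were not shown to differ between the clones.

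Interferon-stimulated genes were among the most deeply separated. The rule took genes called lower in all 4 contrasts and raised by IFN beta in both controls. It ranked them by the smallest of their 4 differences. An average log2 CPM of at least 1 was required, and predicted genes (such as Gm with a number) were left out. The first 12 were Mx2, Rsad2, Gbp7, Ifit1bl1, Iigp1, Gbp3, Oas3, Ifit1, Rtp4, Trim30a, Cmpk2 and Cxcl10. With predicted genes included, Gm4951, at 0 UMIs in both clones against 113 in EV and 107 in WT, would have ranked first by its fitted values, and Gm6545 would have been among the 12. Being lower in all 4 contrasts was thus required of the 12, and the call for IFN beta used the same treated controls. For none of them did a clone library reach a control library, which ranking by the widest differences favours. Rsad2 (viperin), an enzyme that makes a chain-terminating nucleotide against viral polymerases, stood at 3.68, 2.08 and 0.380 CPM in 1CF10 and at 4.33, 8.86 and 2.27 in 2CD7. Its control libraries held 831, 1031 and 859.5 in EV and 1212, 1092 and 1370 in WT, a pooled difference of -8.32 (SE 0.17, adjusted p = 3.35e-18). In bulk RNA, fewer expressing cells and less RNA per cell cannot be told apart. Its neighbour Cmpk2, a nucleotide kinase, held 1.67 to 2.28 in 1CF10, 2.72 to 8.51 in 2CD7 and 405 to 771 in the controls (-7.50, SE 0.17).

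Ifit1, which binds viral RNA that lacks the host cap methylation, was at 4.35, 4.99 and 3.42 in 1CF10, 3.03, 20.6 and 5.90 in 2CD7, 1009, 1220 and 976 in EV and 1191, 954 and 1218 in WT (-7.41, SE 0.21). The single value of 20.6 came from library 2 of 2CD7. Cxcl10, a chemokine that draws activated T cells, showed the same library: 4.76, 18.4 and 5.44 in 2CD7 against 3.33 to 5.69 in 1CF10 and 680 to 915 in the controls (-6.86, SE 0.18). Library 2 of 2CD7 was the highest clone library for 9 of the 12 genes and for 53 of the 143 genes that were lower in all 4 contrasts and at least 4-fold lower on average. Over all 11698 tested genes it was the highest for 1564, and library 3 of 1CF10 for 3262. Among all 374 genes lower in all 4, these 2 libraries were the highest for 88 genes each. Summed over the 12 genes it held 67.3 CPM, the other 5 clone libraries 13.3 to 19.1 and the controls 3709 to 5011. Without this library 344 genes were lower in all 4 contrasts and 38 were higher, and without library 3 of 1CF10 the counts were 383 and 39.

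Several of the 12 were at or near 0 in a clone, where only a bound or a counting interval can be given. Mx2, of the family of dynamin-like antiviral GTPases, is annotated as a polymorphic pseudogene, and its protein was not measured. It had 0 UMIs in the 3 libraries of 1CF10 and 1 in 2CD7, with 268 in EV and 377 in WT. Against a floor of 3 UMIs over a clone's libraries this is at least 111-fold lower in 1CF10, and 305-fold lower in 2CD7 (95% interval 54.6 to 12100). Oas3, which makes oligoadenylates that activate RNase L, had 0 UMIs in both clones, 87 in EV and 41 in WT, at least 22.1-fold lower in 1CF10 and at least 20.2-fold in 2CD7. Gbp7, a guanylate-binding protein, had 3 UMIs in 1CF10 and 2 in 2CD7 against 452 and 483, ratios of 161 (55.0 to 783) and 221 (61.1 to 1830). Iigp1, an immunity-related GTPase, had 0 and 7 UMIs against 882 and 1227, and Trim30a had 0 and 2 against 299 and 244. The intervals cover counting error alone, and members of the Gbp, Ifit, Oas and Trim30 families have close copies among which reads could be split.

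**Figure D2:**
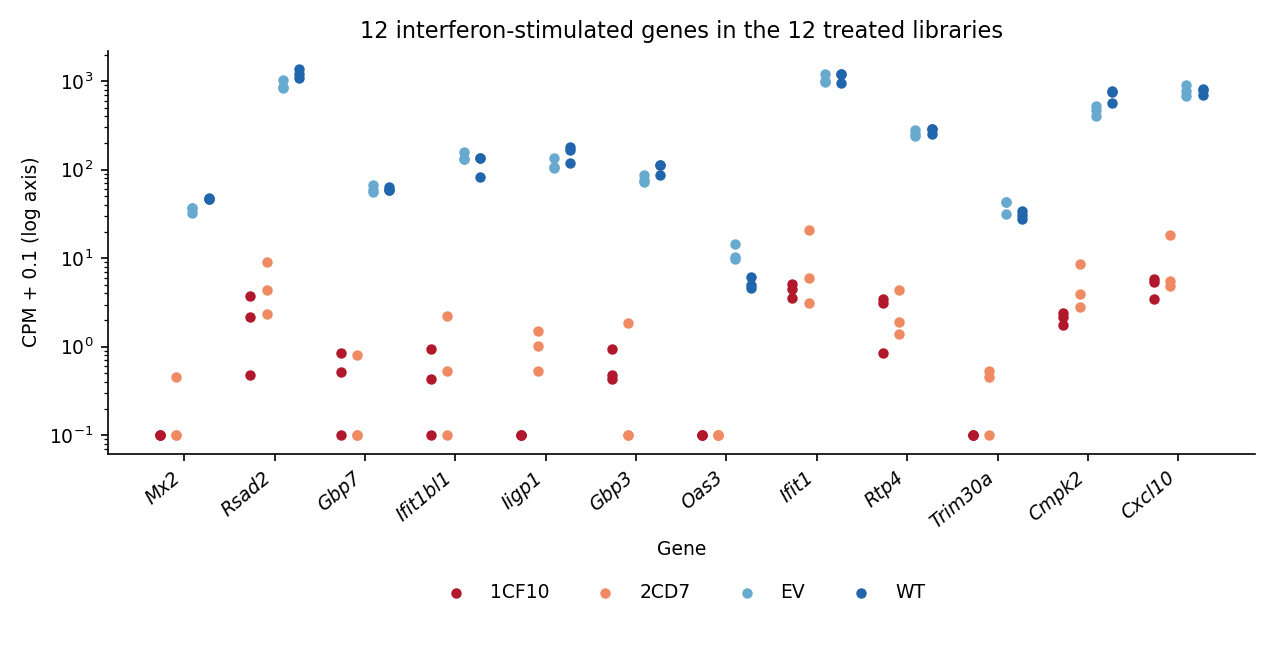
Each point is 1 treated library: CPM plus 0.1 on a log axis for 12 genes chosen for wide differences between clones and controls. Clones are in red and orange and controls in blue, and a library at 0 sits at 0.1. No clone library reaches a control library for any of the 12, and library 2 of 2CD7 is the highest clone library for 9 of them, as at Ifit1 with 20.6.

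The promoters of 4 of these genes are shown as examples that carry the ISRE core, searched as GAAA, any 2 bases, then GAAA on both strands. Sequences are RefSeq's, build GRCm38.p6, on the strand of the gene, 5′ to 3′, and capitals mark the match. They lie at chr12:26456538-26456597 (Rsad2, minus strand), chr3:142530258-142530317 (Gbp7, plus), chr19:34602038-34602097 (Ifit1bl1, minus) and chr3:142559974-142560039 (Gbp3, plus).
Rsad2: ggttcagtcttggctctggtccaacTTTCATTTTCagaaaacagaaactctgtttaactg
Gbp7: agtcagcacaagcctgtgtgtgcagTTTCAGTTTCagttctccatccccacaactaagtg
Ifit1bl1: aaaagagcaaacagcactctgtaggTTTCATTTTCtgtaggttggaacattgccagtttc
Gbp3: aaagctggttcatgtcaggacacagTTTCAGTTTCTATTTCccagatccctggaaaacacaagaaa
In these 4 the core reads on the opposite strand, so that it appears as TTTC, 2 bases, TTTC. The match begins 120 bases before the annotated start of Rsad2, 53 before that of Gbp7 and 104 before that of Ifit1bl1, and Gbp3 holds 2 overlapping matches from 45 bases before it. Of the 12 genes 9 had a window, and 8 of these held the core before the start in at least 1. For these 12 genes only the 250 bases before the start were searched, unlike the longer windows of the shares below. There Cmpk2 had no match, nor did a second window each of Gbp3 and Trim30a. In Oas3 and Cxcl10 the core reads on the strand of the gene.

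Promoter windows from 250 bases before to 50 after the start were available by symbol for 8158 of the 11698 tested genes. The ISRE core occurred in 303 of these (3.71%), and in 3.44% of all 32851 windows in the table. Among genes lower in all 4 contrasts, 74 of 290 with a window (25.5%) held it, and 2 of 39 (5.13%) among genes higher in all 4. The share rose with the depth of the difference: 49 of 104 (47.1%) where the clones were at least 4-fold lower on average, and 6 of 83 (7.23%) where they were under 2-fold lower. The gamma-activated site, searched as TTCNNNGAA, an element of promoters that respond to interferon gamma, was in 8.16% of tested genes, 14.5% of those lower in all 4 and 5.13% of those higher. A match to these letters describes the window and does not show binding, and both motifs were counted in the same windows without regard to overlap.

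**Figure D3:**
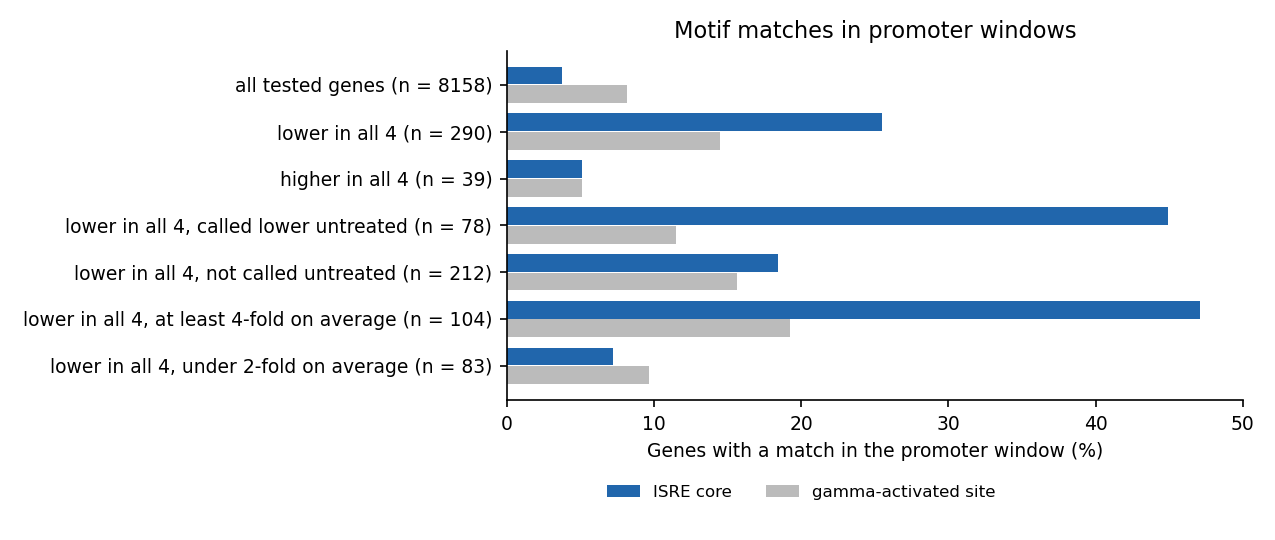
Bars give the percent of genes with a match in any promoter window, for the ISRE core (blue) and the gamma-activated site (grey), in sets of genes defined by the 4 treated contrasts, with the number of genes that have a window in brackets. The blue bar is 3.71% for all tested genes, 25.5% for genes lower in all 4 and 47.1% for those at least 4-fold lower on average.

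Antiviral effectors were lower throughout. Of 66 listed, 60 were tested; all 60 were lower on average and 59 in all 4 contrasts, where 11.9% and 3.2% of tested genes were, with a median of -3.93 against 0.02 for all tested genes. Taking the 7 members with a treated group at 0 UMIs at their bound, the median was -3.82. These 7 entered the tested set through groups other than the one at 0. The list, like those below, was written with earlier results of these data known, so its counts are a description. The same 11.9% and 3.2% of all tested genes stand beside the counts of the lists below. The exception to all 4 contrasts was Ifitm2, a membrane protein that restricts virus entry, at -0.22 (SE 0.06). Isg15, a ubiquitin-like modifier, held 2.02 CPM in 1CF10, 3.14 in 2CD7, 226 in EV and 299.8 in WT. Ifi44 had 0 UMIs in 1CF10 and 4 in 2CD7 against 269 and 346. Summed over the list, clone libraries held 1044 to 1182 CPM and control libraries 8863 to 11220, without overlap.

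Guanylate-binding and immunity-related GTPases, which attack the vacuoles of intracellular pathogens, had the lowest median of the lists, -6.24 (-5.90 with bounds). All 16 tested members were lower in all 4 contrasts, and their sum was 40.8 to 102 CPM in clones against 1862 to 3111 in controls. Igtp stood at 2.28 in 1CF10 and 3.84 in 2CD7 against 302 in EV and 469 in WT. Gm12250 had 1 UMI in 1CF10 and 4 in 2CD7 against 337 and 670, and Gm4951 had none in either clone against 113 and 107, at least 37.9-fold and 34.7-fold lower. The controls were not alike here: EV was below WT in 10 of the 16 (and in 10.4% of all tested genes), with a median of -0.45. The clones thus lay nearer to EV than to WT.

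Sensors of foreign nucleic acid fell in the same manner. Of 21 tested, 19 were lower and 18 were so in all 4 contrasts, with a median of -3.78; Mavs, the mitochondrial adaptor of the RNA sensors, was higher (0.53, SE 0.14, adjusted p = 0.00477), and Tlr7 was not called (-0.69, SE 0.27). Ifih1 (MDA5) and Ddx58 (RIG-I), which detect viral RNA in the cytosol, were lower by -4.61 (SE 0.14) and -3.05 (SE 0.10), and the DNA sensor Cgas by -1.47 (SE 0.12). Ifi203, of the p200 family of DNA-binding proteins, held 4.69, 3.33 and 3.42 CPM in 1CF10, 2.16, 2.84 and 0.454 in 2CD7, 154, 181 and 149 in EV and 228, 214 and 232 in WT (-6.17, SE 0.13). No clone library of Ifi203 came near a control library. Zbp1, a sensor of Z-form nucleic acid, had 1 and 2 UMIs in the clones against 133 and 234, and Tlr3, the endosomal sensor of double-stranded RNA, was lower by -5.33 (SE 0.27). Tlr4, the receptor for bacterial lipopolysaccharide, was lower on average only (-0.48, SE 0.15); that call was lost in 1 of the other settings.

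Class I antigen presentation was lower at most of its steps, by smaller amounts for the abundant members. Of 22 tested, 18 were lower, 14 of them in all 4 contrasts, with a median of -1.30 and no member higher. The immunoproteasome subunit Psmb9 had 3 UMIs in each clone against 144 in EV and 253 in WT, ratios of 68.5 (23.3 to 333) and 62.6 (21.3 to 305). Tap1, which carries peptides into the endoplasmic reticulum and whose gene model overlaps that of Psmb9 at their starts, held 0.380 to 2.01 CPM in 1CF10, 0.433 to 5.32 in 2CD7 and 72.3 to 91.6 in controls (-5.30, SE 0.22). B2m, the light chain of class I molecules, held 484 and 464 CPM in the clones and 1072 and 1171 in EV and WT (-1.31, SE 0.05, adjusted p = 1.07e-31). The heavy chains H2-K1 and H2-D1 were lower by -1.30 (SE 0.09) and -1.22 (SE 0.06), and Nlrc5, their transcriptional activator, by -3.02 (SE 0.40). The 4 members not called were Calr, Canx and Pdia3, general chaperones of the endoplasmic reticulum, at 0.08, 0.15 and -0.02, and H2-T24 at -0.85 (SE 0.34).

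The receptor pathway itself divided by role. Of 27 tested genes 16 were lower, 11 of them in all 4 contrasts, with a median of -0.52. Over all tested genes these shares were 11.9% and 3.2%. Transcription factors that the pathway both uses and induces were low: Stat2 held 7.03, 6.24 and 10.6 CPM in 1CF10, 9.52, 9.21 and 12.7 in 2CD7, 107, 115 and 92.7 in EV and 116, 132 and 118.5 in WT (-3.70, SE 0.12). Neither clone overlapped a control for Stat2, and the difference between the clones was not called (adjusted p = 0.33). Irf9, its partner, was lower by -4.08 (SE 0.16) and Irf7, which amplifies interferon production, by -6.19 (SE 0.27). The feedback inhibitors Usp18 and Socs1 were lower by -6.62 (SE 0.23) and -4.58 (SE 0.15). The kinases Jak1 (0.05, SE 0.08) and Tyk2 (0.06, SE 0.21) were not called, and 11 members in all did not pass the test.

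Ligands read by immune cells differed by size. Of 6 tested checkpoint ligands 4 were lower, where 11.9% of all tested genes were, with a median of -0.72. Cd274 (PD-L1), which restrains T cells, held 2.01, 2.50 and 1.14 CPM in 1CF10, 0.865, 3.54 and 1.81 in 2CD7, 63.3, 72.4 and 52.5 in EV and 50.1, 42.8 and 52.5 in WT (-4.81, SE 0.19, adjusted p = 3.02e-30). Galectin 9 (Lgals9) was lower by -2.25 (SE 0.07) and Cd47, a signal against phagocytosis, by -0.87 (SE 0.05), both in all 4 contrasts. Nectin2 was lower on average (-0.56, SE 0.06), and Pvr and Cd276 were not called. Of 13 tested chemokines and cytokines 8 were lower and 2 higher, where 11.9% and 9.93% of all tested genes were. Il15, which sustains natural killer and memory T cells, was at -2.90 (SE 0.25) and Ccl8, a chemokine for monocytes, at -3.20 (SE 0.32). Tnfsf10 (TRAIL) had 0 UMIs in both clones against 23 in EV and 48 in WT, at least 12.2-fold and 11.2-fold lower; edgeR called it (adjusted p = 1.88e-09) and DESeq2 did not (adjusted p = 0.254). The 2 higher members were Cxcl12 (0.24, SE 0.06) and Ccl20 (0.79, SE 0.29), the latter with a call lost in 11 of the other settings.

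Among 32 tested cell death genes 15 were lower, 10 of them in all 4 contrasts, with a median of -0.25. Of all tested genes 11.9% were lower and 3.2% were lower in all 4. Daxx, a chromatin and death-domain-associated protein, held 36.5 to 42.2 CPM in 1CF10, 35.1 to 48.2 in 2CD7, 265 to 304 in EV and 324 to 379 in WT (-3.00, SE 0.08). Xaf1, an antagonist of the caspase inhibitor Xiap, was lower by -3.40 (SE 0.13), the necroptosis effector Mlkl by -1.56 (SE 0.09) and the death receptor Fas by -2.30 (SE 0.40). For each of these 4 genes the clone and control libraries did not overlap, which naming genes with large differences favours. The same held on the lower side for 10 of the 32 tested members and for 406 of all 11698 tested genes. Bcl2l1 was the 1 member higher (0.25, SE 0.08), a call lost in 9 of the other settings, and Casp12 was called lower in 2CD7 against both controls and in 1CF10 against neither, at 1.73 to 3.63 CPM against 7.49 to 13.3 in 1CF10 and 6.53 to 13.9 in controls (clone difference -1.86, SE 0.35, adjusted p = 5.51e-05).

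**Figure D4:**
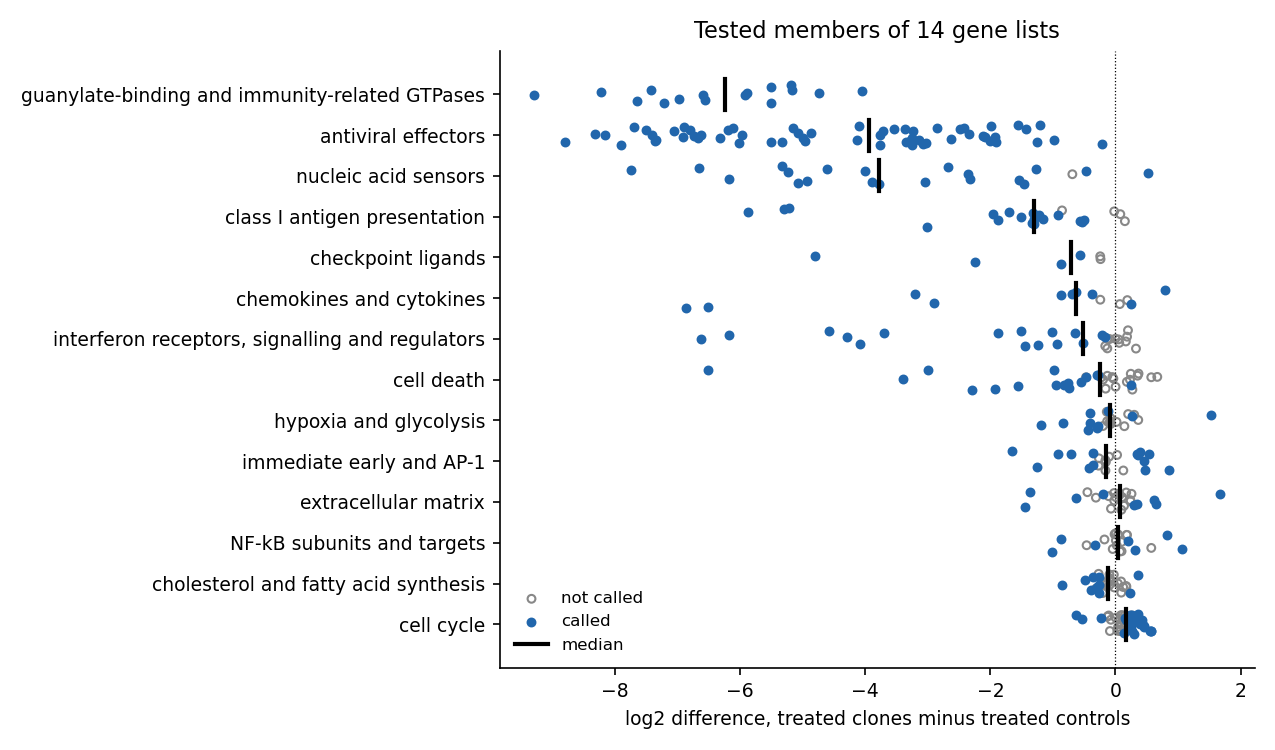
Each point is a tested member of a list, placed by its log2 difference of the treated clones from the treated controls (filled where called, open where not), with the median of the list as a bar; fitted values of genes with 0 UMIs in a clone depend on the prior count. Medians run from -6.24 for the GTPases to 0.17 for cell cycle genes.

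The lists with an interferon theme did not take up all the genes. Of the 374 genes lower in all 4 contrasts 229 were in no list, as were 46 of the 48 higher. Genes with other known roles were among the lower ones. Hk2, the inducible hexokinase of glycolysis, held 72.0, 67.4 and 71.9 CPM in 1CF10, 74.4, 56.7 and 69.4 in 2CD7, 147, 184 and 166 in EV and 143, 125 and 131 in WT (-1.18, SE 0.07). Hif1a, the oxygen-regulated transcription factor, was lower by -0.84 (SE 0.07), and these were the 2 members of 23 tested hypoxia and glycolysis genes that were lower in all 4 contrasts. Of 9 tested mesothelial and keratin genes 2 were lower, 2 higher and 5 not called on average. Of all tested genes 11.9% were lower and 9.93% higher. Krt18 was lower in all 4 contrasts (-0.87, SE 0.04) and the mesothelial gene Upk1b was higher in all 4 (0.32, SE 0.05). Krt8 was lower on average (-0.61) and Upk3b higher (1.06), each with contrasts of both signs, from -1.35 to 0.14 for Krt8 and from -0.98 to 3.11 for Upk3b. Of 22 immediate early genes 7 were lower and 7 higher, beside the same 11.9% and 9.93% of all tested genes. Only Zfp36, a protein that destabilises cytokine mRNA (-1.65, SE 0.17), and Klf4 (-1.26, SE 0.07), a transcription factor, were lower in all 4.

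A different set was lower in both clones and was called for IFN beta in neither control. Under the naming rule 17 such genes were eligible. The first 10 in its ranking were Ggh, Cacna2d2, Pcdh9, Mettl27, Plppr4, Optn, Lsm14a, Sptlc2, Soat1 and Isoc1. Ggh, gamma-glutamyl hydrolase of folate metabolism, held 2.01, 2.08 and 1.14 CPM in 1CF10, 0, 0.709 and 0.454 in 2CD7, 14.3, 11.6 and 15.8 in EV and 14.1, 15.3 and 13.4 in WT. That is a ratio of 8.06 (4.70 to 15) for 1CF10 and of 34.4 (11.6 to 168) for 2CD7. Cacna2d2, a calcium channel subunit, was at -2.43 (SE 0.19) with treatment and -2.25 without, and the difference between these was not called (-0.18, adjusted p = 0.86). For Ggh, too, untreated clones were lower (-2.79, adjusted p = 1.1e-12). Of the 10 genes, 8 were also called lower in untreated clones, the exceptions being Mettl27 and Optn. A gene not called for IFN beta may still respond: Optn had adjusted p of 0.0528 in WT and 0.109 in EV, and its clone difference did change with treatment (-0.58, adjusted p = 0.0351).

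Genes higher in both clones differed by less. Of the 48, 2 were at least 2-fold higher on average, Trib2 and Atg16l2. Those lowered by IFN beta in both controls include Trib2, a pseudokinase, at 33.5, 26.2 and 41.1 CPM in 1CF10, 71.0, 62.0 and 69.0 in 2CD7, 16.3, 17.1 and 21.4 in EV and 18.2, 24.0 and 23.6 in WT (1.18, SE 0.11). Both clones lay above all controls, 2CD7 above 1CF10 (1.03, adjusted p = 2.47e-08). Without treatment the average of the clones was not called in Trib2 (-0.22, adjusted p = 0.17), with 30.3 to 40.7 CPM in 1CF10, 51.9 to 56.0 in 2CD7, 36.1 to 43.9 in EV and 53.8 to 69.8 in WT. There 1CF10 lay below WT and overlapped EV, and 2CD7 lay above EV and overlapped WT. The change of the difference was 1.40 (adjusted p = 3.1e-11). Gxylt2, a glycosyltransferase that modifies Notch, was higher by 0.63 (SE 0.06), Jade1 by 0.87 (SE 0.09), Neurl1b by 0.92 (SE 0.11) and Mtcl1 by 0.55 (SE 0.12). In each of these 5 the 6 clone libraries lay above the 6 controls, as in 44 of the 48, which choosing genes called in all 4 contrasts favours. Over all 11698 tested genes 291 had no overlap on the higher side. None of the 5 was called in the average over untreated clones, nor were 36 of the 48.

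Higher genes that IFN beta called in neither control were, by rule, Atg16l2, Phf19, Glis2, Kif18a, S1pr2, Polr3g, AW209491, Tbl2, Bag2 and Rap2a. S1pr2, a receptor for sphingosine 1-phosphate, held 27.5 to 29.1 CPM in 1CF10 and 29.0 to 34.4 in 2CD7 against 10.7 to 13.8 in EV and 14.8 to 18.3 in WT (0.98, SE 0.13). Phf19, a Polycomb-associated protein, was higher by 0.91 (SE 0.15) and the mitotic kinesin Kif18a by 0.87 (SE 0.17). Of the 10 named, Phf19, S1pr2 and Rap2a were called higher in untreated clones as well.

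The untreated cultures allow the same contrast in libraries that the treated one does not use. There 518 genes (4.43% of tested) were lower in the clones and 311 (2.66%) higher. Of the 1392 genes lower with treatment, 356 (25.6%) were also lower without it, which is 68.7% of the untreated list. Of the 1162 higher genes 183 (15.7%) were also higher, 58.8% of the untreated list. Among the 374 lower in all 4 contrasts 99 (26.5%) were lower untreated, 274 were not called and 1 was higher, and the median difference was -1.47 treated and -0.21 untreated. The difference of clones from controls moved down with treatment in 435 genes (3.72% of tested, test of the difference of differences) and up in 168 (1.44%).

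Interferon-stimulated genes contributed to the untreated differences. Of 60 antiviral effectors 35 were lower in untreated clones with a median of -1.28, and of 16 GTPases 7 with a median of -1.16. Of all tested genes 4.43% were lower there. Rsad2 held 1.99 and 2.70 CPM in untreated 1CF10 and 2CD7 against 9.99 and 7.80 in untreated EV and WT, a difference of -1.91 that grew by -6.41 with treatment (adjusted p = 3.3e-06). Irf7 held 2.03 and 0.909 untreated against 14.3 and 11.3 (-3.14, adjusted p = 0.00045). Ifi27, a mitochondrial interferon-stimulated protein, was lower by -2.11 (SE 0.09) with IFN beta and by -1.87 without, and the change was not called (-0.24, adjusted p = 0.419). Of class I presentation genes 3 of 22 were lower untreated, and Daxx (0.04) and Tap1 (-0.27) were not called there. The ISRE core was in 35 of 78 promoters (44.9%) of genes lower in all 4 contrasts that were also lower untreated and in 39 of 212 (18.4%) of those not called untreated, with 11.5% and 15.6% for the gamma-activated site.

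**Figure D5:**
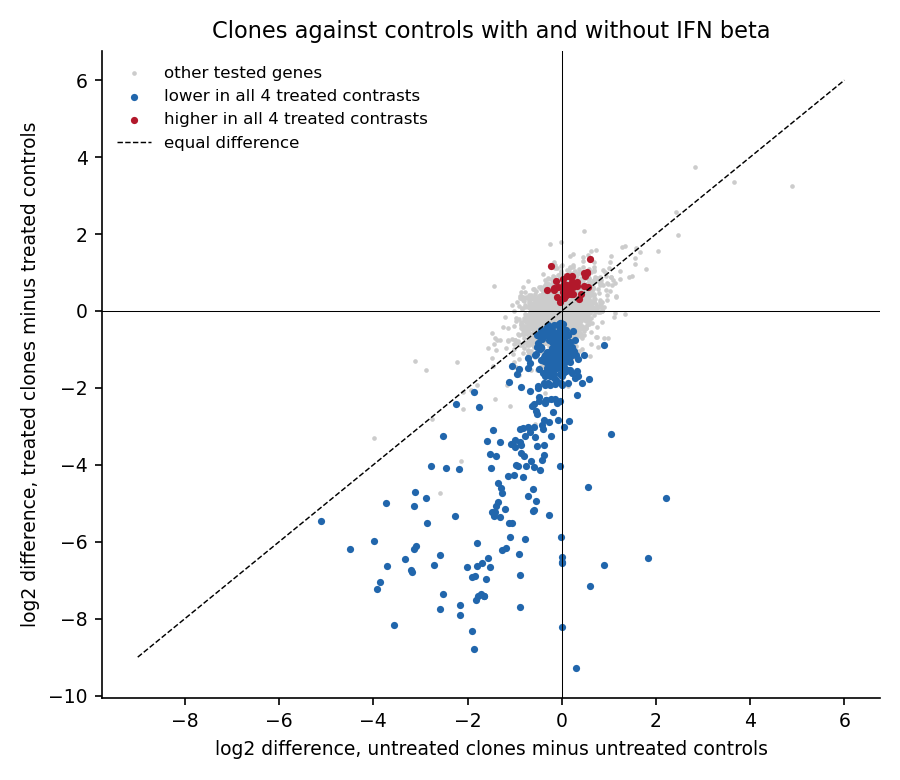
Each point is a tested gene: its log2 difference of clones from controls without IFN beta (x) and with it (y), from libraries that do not overlap, with genes lower in all 4 treated contrasts in blue, higher in red and a dashed line of equal difference. Blue points lie mostly below the line, with medians of -0.21 (x) and -1.47 (y).

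A group of 16 genes was called in opposite directions with and without treatment. Ccl2, a chemokine for monocytes, was the widest by the smaller of its 2 differences. Treated libraries held 124, 144 and 138 CPM in 1CF10, 116, 120.1 and 133 in 2CD7, 146, 168 and 164 in EV and 327, 293 and 340 in WT, so that both clones lay below both controls (-0.88, SE 0.06). Untreated clones were above their controls, at 118 and 128 against 42.4 and 103 (0.89), and the change was -1.77 (adjusted p = 5.3e-23). Ccl7, beside Ccl2 on chromosome 11, moved from 0.99 untreated to -0.70 treated. Sgk1, a kinase of ion transport and survival, went the other way, from -0.31 untreated to 0.55 (SE 0.06) treated. For Ccl7, Ccn2 and Car12, EV and WT differed by more than the pooled clone difference: -1.22, 0.96 and -1.83, with treated clone and control libraries overlapping. In Ccl2 EV lay below WT as well, at 146 to 168 against 293 to 340 CPM treated and 42.4 against 103 untreated. This gap between the controls was wider than the pooled clone difference of Ccl2 with and without treatment.

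The clones also departed from the controls separately, in genes chosen for that pattern. Ffar4, a receptor for long-chain fatty acids, had 1 UMI in the 1CF10 libraries and 45 in 2CD7, with 29 in EV and 48 in WT. R3hdml had 1 in 1CF10 and 32 in 2CD7. Timp3, an inhibitor of matrix metalloproteinases, held 65.3, 63.6 and 64.6 CPM in 1CF10 against 6.49 to 17.2 in 2CD7, 12.7 to 15.4 in EV and 4.48 to 6.08 in WT, and Col1a1, a chain of type I collagen, 121 to 149.8 in 1CF10 against 28.1 to 53.2 in the other lines. Gucy2c, a receptor guanylate cyclase, had 38 UMIs in 2CD7 and 0 in 1CF10, EV and WT, and Rorb, a nuclear receptor, had 2 in 2CD7 against 27 to 33 in the rest. Untreated 2CD7 held 7.70 CPM of Gucy2c and the other untreated lines 0, and untreated 1CF10 held 54.1 of Timp3 against 5.91 to 14, so both stood without IFN beta.

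Programs outside the interferon response showed calls in both directions, and in some of them the controls or the clones differed from each other. Of 46 cell cycle genes 23 were higher on average and 3 lower, but 1, Cdc20, was higher in all 4 contrasts. EV was above WT in 23 of them, and in 8.94% of all tested genes. The median of the list was 0.38 for 1CF10 against WT and -0.01 for 2CD7 against EV. Ccnd2 (-0.63, SE 0.05) and Cenpe were lower in all 4, and Mcm6 on average. Of 30 cholesterol and fatty acid genes 8 were lower and 2 higher, none in all 4. Clone 2CD7 was above 1CF10 in 14 of them, and in 8.57% of all tested genes. Cyp51 held 102 to 135 CPM in 1CF10 and 161 to 207 in 2CD7. Without IFN beta 17 of these 30 were lower in the clones, where 4.43% of all tested genes were. Of 25 matrix genes 4 were lower and 5 higher, with Thbs1 (-1.36, SE 0.11) and Spp1 (-0.64, SE 0.04) lower in all 4; Spp1, osteopontin, stood at 3131 and 2763 CPM in the clones against 4216 and 4526. Stress response genes (3 lower and 2 higher of 27), p53 targets (1 and 2 of 20), YAP and TEAD targets (3 and 4 of 20) and NF-kB genes (3 and 4 of 21) stood beside 11.9% lower and 9.93% higher of all tested genes, and in these 4 lists Bcl3 and Ccl2 alone were lower in all 4 contrasts.

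Among the genes that IFN beta raised in both controls and that were not called lower on average, the rule named the 4 with the highest pooled difference. Not being called lower was thus required of them. None of the 4 was called higher on average, and each was called in at least 1 contrast. Id3, an inhibitor of helix-loop-helix factors, was at -0.11 (SE 0.07) with clone and control libraries overlapping, between 90.9 and 128 CPM. Junb (-0.16), Aig1 (-0.19) and Bak1 (-0.23) missed the threshold at adjusted p of 0.052, 0.0515 and 0.0676 and passed it in 5 to 7 of the other settings. Id3 was called lower in 1CF10 against WT (-0.38, adjusted p = 0.00121). Junb was called in opposite directions, higher in 1CF10 against WT (0.40, adjusted p = 0.000192) and lower in 2CD7 against EV (-0.72, adjusted p = 1.61e-09). Aig1 (-0.42, adjusted p = 0.00173) and Bak1 (-0.38, adjusted p = 0.0438) were called lower in 2CD7 against EV.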

How the data were processed

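Poly(A) RNA of 24 cultures was primed at the 3′ end from 20 ng of total RNA, with an index for the sample (8 bp) and a UMI (10 bp), per the labels' protocols. The deposited values are UMI counts per gene that the authors made without normalization, per the file headers. The submitters' processing notes list GRCm38, mm10, edgeR 3.36.0, limma 3.50.0, cutadapt 3.0, R 3.6.2 and R 4.1.2; how reads were aligned is not stated there.

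All 24 libraries were fitted together on 8 group means with edgeR 4.0.16 in R 4.3.3 (filterByExpr with a minimum count of 10 and total of 15, TMM scaling, robust quasi-likelihood F test). An SE is the log2 difference divided by the square root of F. Tested genes held 99.5% to 99.6% of UMIs. Intervals are exact at 95%. The fit was tested on simulated data. Replicate numbers did not pair the samples.

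Members, lists and the naming rule were chosen with earlier results of these data known. The rule took Ifnar1, Ifnar2, Trp53 and Brca2; ranked classes (up to 12 lower and interferon-raised, 10 per direction not interferon-called, 4 per clone and direction, 6 higher and interferon-lowered, 4 opposite to untreated, 4 interferon-raised but not lower) at an average log2 CPM of at least 1, without predicted genes; and up to 4 called members per list. A further 32 genes (among them Isg15, Igtp, Ifih1, Stat2, Irf9, B2m, H2-K1, Mlkl, Spp1, Sgk1, Ifi27 and small remainders of lists) were named after their values were seen. Some genes the rule took are not reported here. Other settings were RLE factors, DESeq2 1.42.0, limma-voom 3.58.1, no filter, a minimum count of 30, a replicate block, treated libraries alone, thinning, a 2-fold call and leaving out each treated library.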

Additional observations from a re-analysis of the deposited data

Results flagged for a closer look

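Differences between the treated clones were looked at again where both should carry the same knockout. Of 159 genes taken for naming, 47 were called between treated 2CD7 and treated 1CF10 by edgeR (adjusted p under 0.05). Over all tested genes 6.64% were lower and 8.57% higher in 2CD7. The 47 include genes chosen for differing between the clones, so this count is no measure of how often the clones differ. Values below are log2, 2CD7 minus 1CF10, and no cause was tested.

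In genes named for differing in 1CF10, 2CD7 was above it by 5.17 in Ffar4, 4.69 in R3hdml, 3.12 in Arhgef28 and 1.42 in Arhgap26, and below it by -2.80 in Rnf144b, -3.57 in Glipr2, -4.54 in Xirp2 and -6.33 in Pappa. In genes named for differing in 2CD7, it was below 1CF10 by -3.43 in Rorb, -2.36 in Tanc2, -2.28 in Tlr7 and -1.86 in Casp12, and above it by 6.73 in Gucy2c, 2.02 in Mycn, 1.5 in Smim6 and 1.54 in Rpph1. Pappa in 2CD7 and Gucy2c in 1CF10 had 0 UMIs, so those 2 fitted values depend on the prior count and are no bound. These 16 genes were chosen for this difference, which is a description.

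Of interferon-related genes among the 47, H2-K1 was at -0.54, H2-D1 at 0.26, Calr at 0.31, Nectin2 at 0.33, Cd276 at -0.48 and Ccl7 at -0.78, while Zfp36 was at 1.01. Matrix and adhesion genes were lower in 2CD7, with Timp3 at -2.30, Col1a1 at -2.03, Thbs1 at -0.67 and Icam1 at -0.47, as were Ccn1 at -1.13, Ccn2 at -1.41, Atf3 at -1.10, Junb at -0.60 and Jade1 at -0.36. Keratin and mesothelial genes were higher in 2CD7, with Krt8 at 1.04, Krt18 at 0.40 and Upk3b at 1.35. Also higher were the sterol genes Fdft1 at 0.76, Nsdhl at 0.63 and Cyp51 at 0.68, the endoplasmic reticulum stress genes Herpud1 at 0.63, Sel1l at 0.59, Pdia6 at 0.60 and Xbp1 at 0.31, and Axl at 0.64, Hif1a at 0.50, Car12 at 0.45, Sgk1 at 0.39 and Trib2 at 1.03.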

How the results depend on the processing

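Named genes were compared across settings in the pooled contrast alone. None reversed its direction where it was called in the main fit or in the setting, and changes of sign in uncalled genes were not counted. In at least 1 setting 27 named genes moved across the threshold, among them Ifnar1, Ccl20, Bcl2l1, Traf1, Xbp1 and Trp53inp1. The median of all genes shifted by less than 0.1 in each setting. A call of at least 2-fold left 322 genes lower and 48 higher on average, 360 and 122 for 1CF10 against EV, 574 and 216 for 1CF10 against WT, 359 and 185 for 2CD7 against EV, 363 and 45 for 2CD7 against WT, 141 and 189 for 2CD7 against 1CF10, 210 and 127 for EV against WT, 214 and 18 for the difference of differences, and 2 genes higher in all 4. DESeq2 called fewer: 754 higher on average, 564 higher for 1CF10 against EV, 499 lower for 2CD7 against 1CF10, 89 higher for the difference of differences and 31 higher in all 4; the cause was not tested. Leaving out each treated library in turn gave 601 to 856 genes higher in 1CF10 against EV (lowest without EV 3, with 621 without EV 1 and 610 without EV 2), 371 to 739 higher in 2CD7 against WT (lowest without 2CD7 1, and 374 without WT 3) and 31 to 40 higher in all 4 (lowest without WT 3), and 344 to 383 lower in all 4. With the replicate block 1424 genes were lower and 1185 higher on average, and 381 and 51 in all 4; the block moved no count by over 1.5 times. Same-numbered treated libraries had a mean correlation of -0.0126 over 18 pairs (-0.0971 to 0.118). Genes at a few UMIs in a clone are limited by depth to bounds and intervals.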

Other observations

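Some named genes follow no group of the text above. Icam1, an adhesion molecule for leukocytes, was higher in the treated clones (0.83, SE 0.10) at 54.3, 57.0 and 60.5 CPM in 1CF10 and 41.1, 39.7 and 40.4 in 2CD7 against 14.5 to 22.2 in EV and 28.1 to 37.9 in WT, and its difference grew with treatment (0.57, adjusted p = 0.0052). Mycn, a Myc family transcription factor, held 3.89, 5.32 and 7.71 in 2CD7 against 1.01 to 2.08 in 1CF10, 0 to 0.817 in EV and 1.74 to 2.44 in WT. Upk3b, a uroplakin of the mesothelium, split the controls instead: 0.854 to 1.63 in EV and 7.98 to 8.34 in WT, with 2.68 to 6.24 in 1CF10 and 9.09 to 13.5 in 2CD7. Srf, the serum response factor, was higher in the clones (0.86, SE 0.17), with 10.9 to 20.5 CPM in the clones and 6.46 to 10.2 in the controls.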
